A study of Homo sapiens with 10 samples.

Results

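Transcripts of 9 genes of blood coagulation and of the plasminogen system were described in SKBR3 cells: THBD, PROCR and TFPI on the anticoagulant side, F3 and FGB on the clotting side, and PLAUR, PLAU, PLAT and SERPINB2 around plasmin. The set was chosen by function together with measured values, because THBD and PLAUR were each known to be lower with siRNA against p53 and higher with calcitriol in these same arrays. Those 2 contrasts are therefore given for the members as values without a test. All probe sets that carried 1 gene symbol were taken. Of the 9 genes, 8 had such a probe set (18 probe sets in all) and 6 genes passed a filter on low signal, among 19775 genes with a probe set and 12022 past the filter. SERPINB2 was not analysed here.

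The arrays came from SKBR3, an established HER2-amplified breast carcinoma line in which every group carries mutant p53. One siRNA was directed against p53 (p53i) and the other against bacterial LacZ (LacZi, the negative control), with 5 arrays for each siRNA. Each set of 5 held 2 untreated arrays and 1 array per time after 8, 20 and 50 h with 100 nM 1alpha,25-dihydroxyvitamin D3 (D3, calcitriol), the hormone that activates the vitamin D receptor. The medium held 10% charcoal-stripped serum, and the labels place D3 either 24 h or 48 h after transfection. A lone array stands for each siRNA at each D3 time, the labels call only the untreated arrays biological replicates, and the p-values measure the spread between these samples. The labels tie no untreated array to a D3 time, so the effect of D3 and that of longer culture cannot be told apart.

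Clotting starts when tissue factor (F3) on a cell surface binds factor VII, and it ends with thrombin cutting fibrinogen, of which FGB is a chain, into fibrin. Thrombomodulin (THBD) takes thrombin out of clotting and directs it to activate protein C, which the endothelial protein C receptor (PROCR) holds at the membrane, while TFPI blocks the tissue factor complex. Fibrin is dissolved by plasmin, which is made from plasminogen by urokinase (PLAU), held on cells by its receptor (PLAUR), or by tissue plasminogen activator (PLAT), and SERPINB2 inhibits both activators. Carcinoma cells use the urokinase receptor in adhesion and invasion, and THBD is a textbook vitamin D target in monocytic cells.

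The arrays had median MAS5 signals of 35.7 to 44.3, and MAS5 signals (linear, arbitrary units) are quoted throughout. Breast carcinoma markers were high, with ERBB2 between 12690 and 19099 and EPCAM between 4499 and 6554 on all 10 arrays. The mesenchymal VIM lay between 4.60 and 57.4, below the filter. ESR1, also listed as low in this line, lay between 20.1 and 60.2 and passed the filter. CYP24A1, the vitamin D 24-hydroxylase, had 4234 to 6476 on the 6 D3 arrays and 23.7 to 40.0 on the 4 untreated arrays. The ACTB 3'/5' ratio, which goes up when RNA is degraded or labelled unevenly, was 4.39 to 8.72 on p53i arrays and 3.79 to 5.05 on LacZi arrays, with the highest values on p53i untreated replicate 2 and p53i 20 h. The transcript that the p53 siRNA is directed against was not analysed here.

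Promoter windows of 300 bases from RefSeq (GRCh38.p14), which end 50 bases after a start site, were used for 6 of the genes. No window was available for THBD, and PLAT and SERPINB2 were not searched. The windows of PLAUR and F3 are shown because these genes had the same direction with D3 and opposite directions with the p53 siRNA, and because both hold 1 copy of the AP-1 motif TGAGTCA, in capitals. Both genes lie on the minus strand.
PLAUR, chr19:43670120-43670419: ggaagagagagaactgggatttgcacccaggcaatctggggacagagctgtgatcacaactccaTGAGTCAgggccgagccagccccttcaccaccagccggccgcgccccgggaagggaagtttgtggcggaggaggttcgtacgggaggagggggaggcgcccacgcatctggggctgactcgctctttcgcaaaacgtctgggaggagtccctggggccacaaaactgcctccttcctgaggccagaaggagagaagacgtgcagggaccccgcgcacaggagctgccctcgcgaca
F3, chr1:94541710-94542009: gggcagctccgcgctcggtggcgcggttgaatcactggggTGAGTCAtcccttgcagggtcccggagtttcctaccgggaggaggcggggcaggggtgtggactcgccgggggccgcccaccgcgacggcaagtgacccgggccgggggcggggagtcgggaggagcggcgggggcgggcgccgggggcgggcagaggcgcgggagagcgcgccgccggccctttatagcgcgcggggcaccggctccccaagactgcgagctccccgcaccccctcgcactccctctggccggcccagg
The first base of the motif stood at -186 from the start site of PLAUR and at -210 from that of F3. Searched on both strands, TGAGTCA was found in 4.95% of 35116 promoter windows and in none of the windows of PLAU, TFPI, PROCR and FGB. The F3 window also held 4 copies of the SP1 motif GGGCGG (in 45% of windows) and 1 copy of TATAAA (11.5%) on the other strand at -28, and none of these overlapped TGAGTCA. The hexamers AGGTCA (13.8%) and AGTTCA (10.4%), units of the vitamin D receptor motif, did not occur in either printed window. A match is a string of letters and was not tested as a binding site.

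THBD (chromosome 20, 23045633 to 23049672, GRCh38.p14) was lower with p53 siRNA and higher with D3. In p53i cells its signals were 20.0 and 20.0 untreated, then 56.3 at 8 h, 56.6 at 20 h and 55.8 at 50 h. In LacZi cells they were 55.4 and 56.1 untreated, then 116, 103 and 186 at the same times. The 3 p53i arrays with D3 thus stood at the level of the untreated LacZi arrays, and each p53i array was below the LacZi arrays of its own condition.

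The p53i arrays averaged 41.7 ± 19.8 and the LacZi arrays 103 ± 53.6 (SD, n = 5 each), a ratio of means of 0.404. On the log2(signal + 16) scale the difference was -1.01 ± 0.18 (SE), and the differences matched on D3 time lay between -1.49 at 50 h and -0.71 at 20 h. With D3 the mean was 95.6 ± 51.5 (SD, n = 6), against 37.9 ± 20.7 without it (SD, n = 4), a difference of 1.02 ± 0.19 (SE). Against the untreated mean of the same siRNA, the D3 differences at 8, 20 and 50 h were 1.01, 1.01 and 1.00 in p53i cells and 0.88, 0.73 and 1.49 in LacZi cells. The p53i differences were flat over the 3 times, and the LacZi difference was largest at 50 h, on a single array. In bulk RNA, fewer cells with the transcript and less of it per cell cannot be told apart.

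Whether the D3 response of THBD differed between the siRNAs was not used to choose the genes and was tested with limma across all 12022 genes. The D3 difference in p53i cells minus that in LacZi cells was -0.03 ± 0.39 (SE) for THBD (limma adjusted p = 0.996). Differences of the size of that standard error or smaller, and some larger ones, could not be resolved with these arrays. No gene was called for this term. The change between 8 and 50 h over both siRNAs was 0.30 ± 0.29 (limma adjusted p = 0.816).

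The other THBD probe sets were both below the signal filter and differed from the first one and from each other. Probe set 203888_at had 20.0 and 17.4 untreated and 14.6, 8.70 and 24.7 at 8, 20 and 50 h in p53i cells. It had 24.99 and 32.5 untreated and 55.3, 39.2 and 91.6 at those times in LacZi cells. All p53i values lay below all LacZi values. Its D3 differences were -0.18, -0.49 and 0.23 in p53i cells and 0.68, 0.31 and 1.27 in LacZi cells, which is positive at 1 of 3 times in p53i cells and at 3 of 3 in LacZi cells, whereas on 203887_s_at all 6 were positive. Its D3 difference in p53i minus LacZi cells was -0.90 ± 0.47 (SE), given without a test because the probe set lay below the filter. The third, 237252_at, ranged from 3.15 to 29.5 in p53i cells and from 3.56 to 41.8 in LacZi cells, and these ranges overlapped. On it the log2 difference was -0.29 ± 0.30 (SE) with the siRNA and 0.80 ± 0.30 with D3. Against the untreated mean its D3 differences at 8, 20 and 50 h were 0.68, 0.82 and -0.29 in p53i cells and 0.95, 1.30 and 1.35 in LacZi cells. Over the 10 arrays the 203887_s_at values correlated with these sets at Pearson r = 0.79 and 0.66, a description of arrays that share the same treatments.

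**Figure D1:**
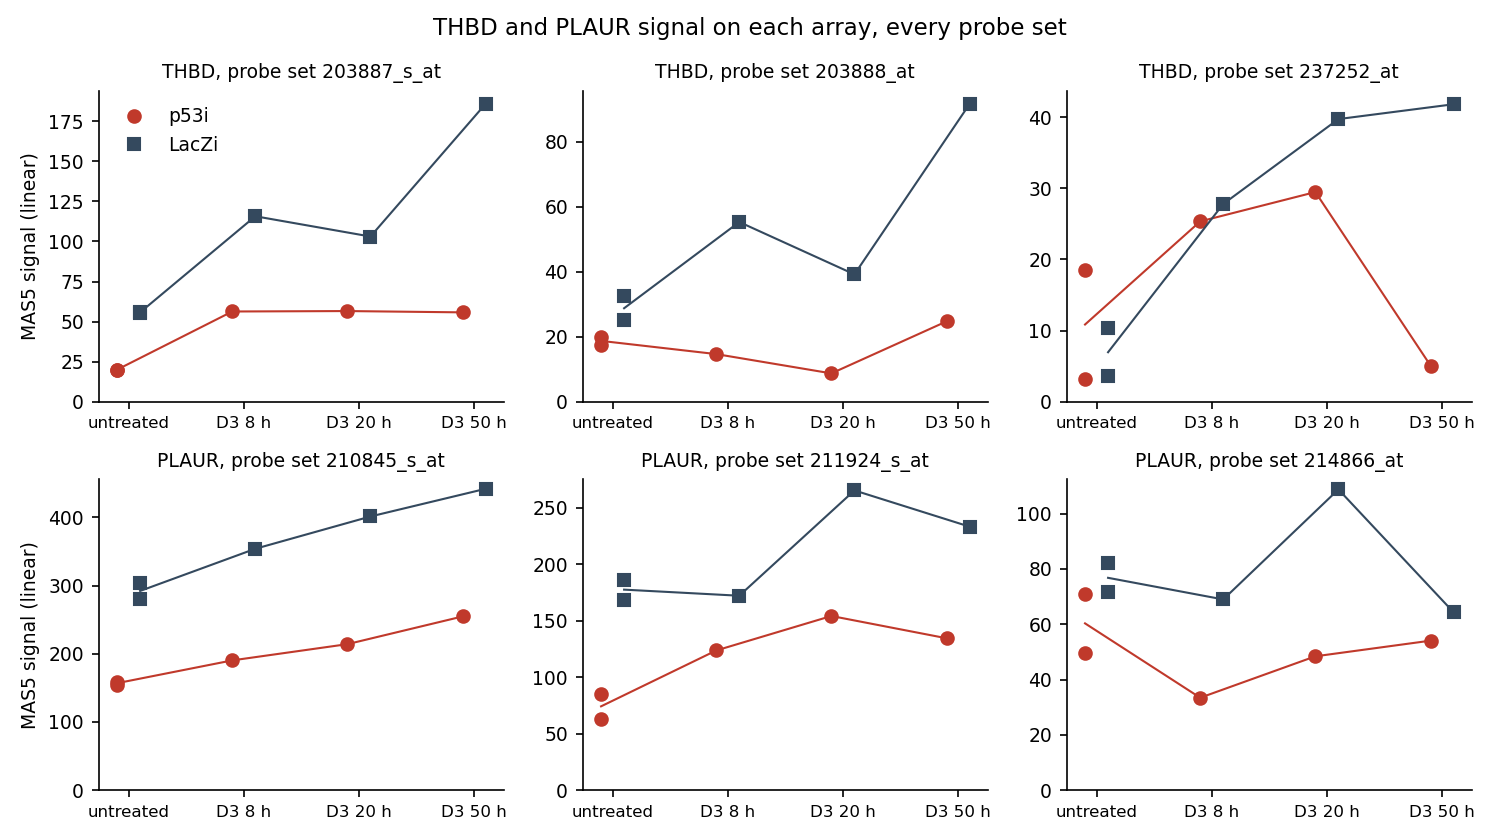
MAS5 signal (linear, arbitrary units, y axis) of the 3 THBD and 3 PLAUR probe sets on each of the 10 arrays, by D3 time (x axis, evenly spaced, not to scale); red circles are p53i arrays, dark squares LacZi arrays, and lines join the untreated mean to the single D3 arrays. On 203887_s_at the p53i arrays with D3 stand at 55.8 to 56.6, where the untreated LacZi arrays stand, and on 210845_s_at every p53i array lies below every LacZi array.

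PLAUR, the urokinase receptor (chromosome 19, 43646095 to 43670169), had the same pair of directions and a steadier course. Its signals in p53i cells were 159 and 154 untreated, then 190, 214 and 255 at 8, 20 and 50 h. In LacZi cells they were 281 and 303 untreated, then 354, 401 and 442. The siRNA groups did not overlap, since the highest p53i array, at 50 h with D3, was below the lowest untreated LacZi array. Within each siRNA all 3 D3 arrays were above both untreated arrays.

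Its mean was 195 ± 41.4 in p53i cells and 356 ± 66.8 in LacZi cells (SD, n = 5 each), a ratio of 0.546 and a log2 difference of -0.83 ± 0.10 (SE). The matched differences were close to each other, at -0.83 untreated, -0.84 at 8 h, -0.86 at 20 h and -0.76 at 50 h. With D3 the signal was 309 ± 104 (SD, n = 6) and without it 224 ± 78.6 (SD, n = 4), a log2 difference of 0.43 ± 0.10 (SE). The D3 differences at 8, 20 and 50 h were 0.26, 0.41 and 0.65 in p53i cells and 0.26, 0.44 and 0.57 in LacZi cells. The D3 difference in p53i minus LacZi cells was 0.01 ± 0.21 (SE; limma adjusted p = 0.996). From 8 to 50 h the difference was 0.35 ± 0.16 (limma adjusted p = 0.496).

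Of the other PLAUR probe sets, both past the filter, 211924_s_at gave -0.82 ± 0.15 (SE) for p53i minus LacZi and 0.53 ± 0.15 for D3 minus untreated, again with no overlap between the siRNAs. Its signals were 63.0 to 154 in p53i cells and 169 to 265 in LacZi cells. Probe set 214866_at had 33.4 to 71.0 in p53i cells and 64.3 to 109 in LacZi cells, which overlapped. It differed by -0.50 ± 0.22 with the siRNA and by -0.14 ± 0.22 with D3, so 2 of the 3 PLAUR probe sets were higher with D3 and this one was not. The first 2 sets correlated at r = 0.93 over the 10 arrays, and 214866_at correlated with them at 0.59 and 0.47.

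THBD and PLAUR themselves correlated at r = 0.92 over the 10 arrays, which share the siRNA and D3 groups that chose both genes. The genes most like THBD were ARMCX5 (r = 0.953), TLCD1 (0.949), BTAF1, an ATPase that acts on the TATA-binding protein (0.943), MTRR, methionine synthase reductase (0.942), and ARHGAP29 (0.942). Those most like PLAUR were MSRB1, a methionine sulfoxide reductase (0.979), the ferrireductase STEAP3 (0.969), NDUFV3, a subunit of respiratory complex I (0.959), SOCS5, a suppressor of cytokine signalling (0.952), and GABPB2, a GA-binding protein subunit (0.948). All 10 were lower with p53 siRNA, by log2 differences between -0.61 (MSRB1) and -0.20 (MTRR), and higher with D3, by 0.07 (SOCS5) to 0.36 (TLCD1). Correlation over these same arrays chose the 10, so their shared directions are a description only. Each of these differences was smaller than that of the THBD or PLAUR it resembled, and none of the 10 was a coagulation or plasminogen gene on the lists used here.

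The ligand of the receptor did not follow it. PLAU, urokinase (chromosome 10, 73908832 to 73917494), had 61.2 and 65.0 untreated and 56.9, 57.7 and 74.6 at 8, 20 and 50 h in p53i cells. It had 57.9 and 98.6 untreated and 62.4, 71.8 and 63.6 at those times in LacZi cells. The groups overlapped, and the 2 untreated LacZi arrays differed more than the siRNAs did. Its log2 difference was -0.12 ± 0.19 (SE) with the siRNA and -0.09 ± 0.19 with D3. The D3 response differed between the siRNAs by 0.16 ± 0.40 (limma adjusted p = 0.975), and 50 minus 8 h was 0.17 ± 0.30 (limma adjusted p = 0.913). The second PLAU probe set, below the filter, ranged from 26.3 to 50.6 in p53i cells and from 16.3 to 48.7 in LacZi cells. PLAT, the other activator, was below the filter on its only probe set, at 2.84 to 17.0 in p53i cells and 1.45 to 21.7 in LacZi cells, so no difference could be read at these signals.

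F3, tissue factor (chromosome 1, 94529173 to 94541759), was higher with p53 siRNA, opposite to PLAUR and THBD, and higher with D3. In p53i cells it had 609 and 748 untreated, then 853, 829 and 1248 at 8, 20 and 50 h. In LacZi cells it had 455 and 603 untreated, then 535, 775 and 746. The highest array was p53i at 50 h and the lowest an untreated LacZi array, and the groups overlapped in both contrasts.

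F3 averaged 857 ± 238 in p53i cells and 623 ± 137 in LacZi cells (SD, n = 5 each), a log2 difference of 0.44 ± 0.12 (SE). The matched differences were 0.36 untreated, 0.66 at 8 h, 0.09 at 20 h and 0.73 at 50 h, all positive but uneven. With D3 the mean was 831 ± 233 (SD, n = 6), against 604 ± 120 without it (SD, n = 4), a difference of 0.43 ± 0.12 (SE). In p53i cells the D3 differences at 8, 20 and 50 h were 0.33, 0.29 and 0.87, and in LacZi cells 0.03, 0.55 and 0.50. The difference between these responses was 0.14 ± 0.25 (limma adjusted p = 0.966), and 50 minus 8 h was 0.50 ± 0.19 (limma adjusted p = 0.415).

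TFPI, the inhibitor of the tissue factor complex (chromosome 2, 187464230 to 187554435), was below the filter on all 5 of its probe sets, whose signals ran from 0.596 to 54.0 over all arrays. Correlations between these sets ran from -0.57 to 0.41, and no level of TFPI was read from them.

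PROCR (chromosome 20, 35171096 to 35216259), the protein C receptor, was set by a pair of arrays. In p53i cells it had 316 and 99.2 untreated, then 113, 92.3 and 89.1 at 8, 20 and 50 h. In LacZi cells it had 389 and 127 untreated, then 166, 134 and 117. Both untreated arrays numbered replicate 1 were far above the other 8, and the lower of them was 1.90 times the highest other array, the second largest such ratio among 12022 genes, none of which reached 2.

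The PROCR mean was 142 ± 97.7 in p53i cells and 186 ± 115 in LacZi cells (SD, n = 5 each), a log2 difference of -0.38 ± 0.30 (SE) that was 0.04 with the ACTB ratio as a covariate. With D3 it was 119 ± 28.5 (SD, n = 6) and without it 233 ± 142 (SD, n = 4). The log2 D3 difference was -0.71 ± 0.31 (SE) with all arrays and 0.04 without untreated replicate 1 of both siRNAs, a setting chosen after seeing the data. The D3 response differed between the siRNAs by -0.13 ± 0.64 (limma adjusted p = 0.985), and 50 minus 8 h was -0.38 ± 0.47 (limma adjusted p = 0.869). Across genes, which are not independent replicates, the replicate 1 minus 2 differences of the siRNAs correlated at 0.22.

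FGB, the fibrinogen beta chain (chromosome 4, 154562980 to 154572807), was high at 50 h only. In p53i cells it had 40.2 and 29.4 untreated, then 56.9 at 8 h, 70.6 at 20 h and 272 at 50 h. In LacZi cells it had 4.33 and 28.6 untreated, then 5.21, 4.46 and 221. Both 50 h arrays stood above the other 8, and before 50 h all p53i arrays were above all LacZi arrays, at signals near the background.

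FGB passed the filter through the 50 h arrays and lay below it without either of them, and its 50 h level was known when it was listed. Its log2 difference was 1.13 ± 0.32 (SE) with the siRNA, 0.96 ± 0.32 with D3, and 2.73 ± 0.50 for 50 minus 8 h. These are descriptions without a test, and with an offset of 64 in place of 16 the last of them was 1.76. The D3 response differed between the siRNAs by 0.63 ± 0.65 (SE), likewise given without a test. A second FGB probe set, below the filter, was also highest at 50 h, with 34.7 in p53i cells and 40.3 in LacZi cells, against 0.919 to 20.8 on the other arrays. Its siRNA difference was -0.27 ± 0.22 (SE), opposite in sign to the first set. Untreated, its p53i arrays (0.919 and 2.30) lay below its LacZi arrays (7.06 and 20.8).

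The genes of the other fibrinogen chains did not share this in full. FGG, below the filter, had its highest signals at 50 h, with 39.3 in p53i cells and 84.4 in LacZi cells, while FGA had 5.96 in p53i cells and 50.0 in LacZi cells there. Fibrinogen is a liver product. Of 7 hepatocyte markers 1 passed the filter. Their summed signal was 173 on the p53i 50 h array and 193 on the LacZi 50 h array, against 118 to 208 over all arrays. ALB, albumin, stayed between 2.85 and 33.6. APOA1, also below the filter, was highest at 50 h, with 42.5 in p53i cells and 45.6 in LacZi cells, against at most 35.7 on the other arrays. No other marker on this list had its highest signals on both 50 h arrays. The part of these markers in the FGB values was not tested.

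**Figure D2:**
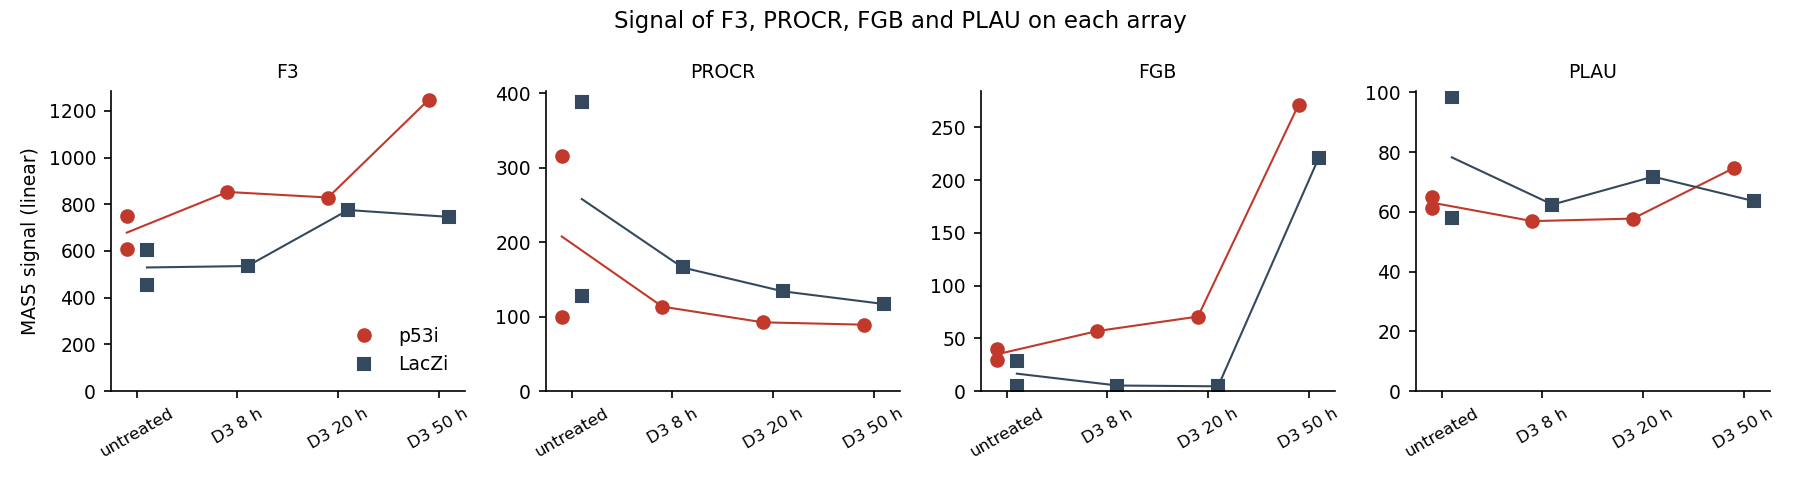
MAS5 signal (linear, arbitrary units, y axis) of F3, PROCR, FGB and PLAU on each of the 10 arrays, by D3 time (x axis, evenly spaced, not to scale); red circles are p53i arrays, dark squares LacZi arrays, and lines join the untreated mean to the single D3 arrays. At 50 h FGB reaches 272 in p53i cells and 221 in LacZi cells, and PROCR is high on 1 untreated array of each siRNA, at 316 in p53i cells and 389 in LacZi cells.

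Over the 6 members past the filter, the median log2 difference was -0.25 with the siRNA and 0.43 with D3, where both medians over all genes were -0.00. These contrasts chose the members, so the medians are a description. Leaving out each array in turn kept THBD between -1.09 and -0.89 and PLAUR between -0.84 and -0.81 with the siRNA. With D3, THBD lay between 0.92 and 1.12 and PLAUR between 0.41 and 0.45 in those fits. F3 lay between 0.37 and 0.52 with the siRNA under all alternatives run.

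None of the 5 members other than FGB was called by limma for a D3 response that differed between the siRNAs. Of these members, 0 had an unadjusted p under 0.05. Of all genes, 0 (0%) were called and 645 had an unadjusted p under 0.05. Between 8 and 50 h, 0 of the 5 members other than FGB were called by limma and 2 had an unadjusted p under 0.05. For that difference 16 genes (0.133%) were called and 1156 had an unadjusted p under 0.05. Without FGB, the members' medians were 0.01 for the difference between responses (all genes -0.03) and 0.30 for 50 minus 8 h (all genes -0.01).

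**Figure D3:**
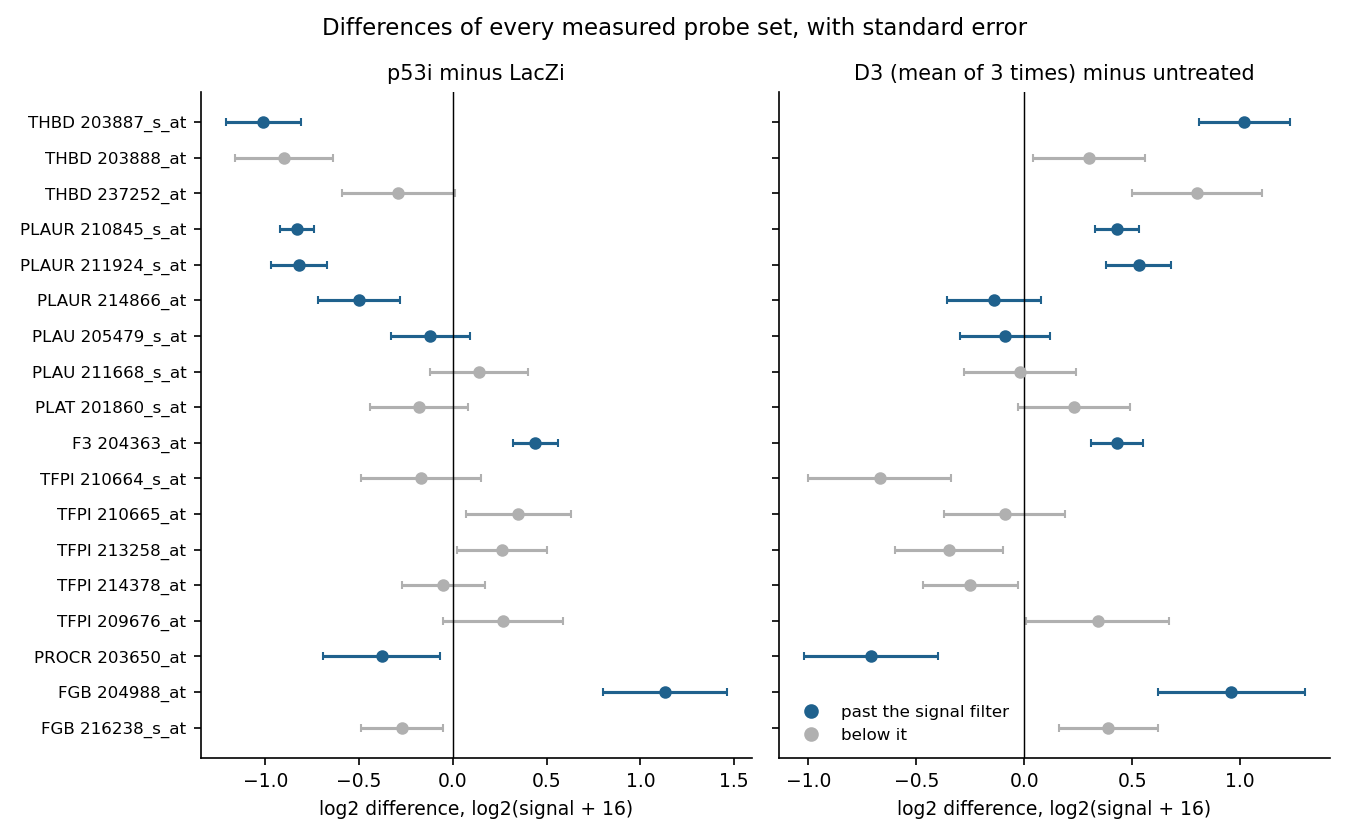
Log2 differences (x axis, log2(signal + 16) scale) of all 18 probe sets with their standard errors as bars, fitted over all probe sets with 1 symbol, for p53i minus LacZi (left) and D3 (mean of the 3 times) minus untreated (right); blue points passed the signal filter and grey points did not. THBD 203887_s_at and PLAUR 210845_s_at lie left of 0 with the siRNA, at -1.01 and -0.83, and right of 0 with D3, at 1.02 and 0.43, while F3 lies right of 0 in both.

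The rest of the coagulation and plasminogen systems was read from 69 further genes in 6 groups, of which 66 had a probe set and 30 passed the filter. In p53i cells 3 rose and 1 fell by limma, and 26 did not pass the test. Of the 12022 genes, 3.39% were called higher and 3.11% lower at a limma adjusted p under 0.05. The gene that fell was PLGRKT, a transmembrane receptor that holds plasminogen on cells, at 244 ± 17.6 in p53i cells and 371 ± 21.0 in LacZi cells (SD, n = 5 each). Its log2 difference was -0.58 ± 0.10 (SE; limma adjusted p = 0.00890). ST14, the membrane serine protease matriptase, rose to 1876 ± 173 in p53i cells, against 1339 ± 108 in LacZi cells (SD, n = 5 each), a difference of 0.48 ± 0.08 (SE; limma adjusted p = 0.00652). Both calls were kept without any 1 array.

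ANXA2, an annexin that binds plasminogen and its tissue activator, rose by 0.42 ± 0.10 (limma adjusted p = 0.0325), on a probe set whose name marks possible cross-hybridisation. Its call remained only without LacZi untreated replicate 2 or p53i untreated replicate 1. TIMP2, a metalloproteinase inhibitor, rose by 0.37 ± 0.08 (limma adjusted p = 0.0263) and was not called without LacZi untreated replicate 2 or any 1 of the 20 h and 50 h arrays. With the ACTB ratio as a covariate, none of these 4 was called by limma. That ratio was higher on the p53i arrays and its part in the 4 calls was not tested further.

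With D3, 0 of the 30 rose and 1 fell by limma, where 1.99% of all genes were called higher and 2.41% lower. VKORC1, the vitamin K epoxide reductase needed to make several clotting factors, was at 648 ± 88.4 with D3 (SD, n = 6) and 838 ± 35.1 without it (SD, n = 4), a difference of -0.37 ± 0.08 (SE; limma adjusted p = 0.0248). That call remained only without an untreated replicate 2 of either siRNA. For the difference between D3 responses and for 50 minus 8 h, 0 of the 30 were called by limma, and 0 and 4 had an unadjusted p under 0.05. The list's median was -0.05 with the siRNA and 0.01 with D3.

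By group, the plasminogen system had 1 higher and 1 lower of 7 past the filter with the siRNA, and plasmin's downstream proteases and their inhibitors had 2 higher of 8, beside the 3.39% called higher and 3.11% called lower among all genes. Counts this small do not set a group apart. The 7 clotting factors and their processing enzymes, the 2 other anticoagulant proteins and the 6 partners of the urokinase receptor had 0 called with the siRNA, and 0, 1 and 0 of them had an unadjusted p under 0.05. None of the 3 measured protease-activated receptors passed the filter.

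Cells known to express these genes strongly were checked by their markers. Of 8 endothelial markers 1 passed the filter, with a summed signal of 193 to 234 on p53i arrays and 179 to 251 on LacZi arrays. The endothelial cadherin CDH5, below the filter, had 66.7 on p53i untreated replicate 1 and 45.8 on LacZi untreated replicate 1, the arrays on which PROCR was high, and at most 21.0 on the other 8. PECAM1, the endothelial marker past the filter, was not raised there, with 90.5 and 82.0 on those arrays and 84.7 to 142 on the other 8. VWF lay between 4.83 and 33.7, and the part of these markers in the PROCR values was not tested. Platelet markers (2 of 5 past the filter) summed to 178 to 224 in p53i cells and 127 to 312 in LacZi cells, and fibroblast markers (2 of 7) to 379 to 542 in p53i cells and 428 to 625 in LacZi cells. Monocyte markers (1 of the 5 measured) summed to 187 to 243 on p53i arrays and 149 to 374 on LacZi arrays. With D3 they summed to 192 to 374, against 149 to 202 untreated. The highest sum was on LacZi 50 h, where THBD and PLAUR 210845_s_at were also highest. The other PLAUR probe sets were highest on LacZi 20 h. Of the monocyte markers CD14, a receptor below the filter, had 11.5 and 33.4 untreated and 38.9, 17.0 and 24.98 at 8, 20 and 50 h in p53i cells. In LacZi cells it had 15.1 and 22.1 untreated and 51.9, 78.0 and 127 at those times. CSF1R, a macrophage growth factor receptor, had 146 and 90.1 untreated and 145, 131 and 133 with D3 in p53i cells, and 108 and 119 untreated and 167, 195 and 191 with D3 in LacZi cells. Both were higher with D3 at each time in LacZi cells, as were all THBD probe sets and PLAUR 210845_s_at. The other PLAUR probe sets were not. At 8 h 211924_s_at had 172 in LacZi cells, against 169 and 186 untreated, and 214866_at had 69.0, against 71.6 and 82.0. In p53i cells neither CD14 nor CSF1R was above both untreated arrays at each time, whereas THBD 203887_s_at and PLAUR 210845_s_at were. The other THBD probe sets and PLAUR 214866_at were not, and PLAUR 211924_s_at was. AIF1, below the filter, was also higher in LacZi cells, with 6.05 and 15.6 untreated and 30.5, 21.4 and 43.4 with D3. LYZ, below the filter, had 6.58 and 1.89 untreated there and 19.5, 18.4 and 1.76 with D3, so it was not higher at 50 h. In p53i cells LYZ had 2.39 and 14.7 untreated and 16.7, 41.2 and 26.5 with D3, above both untreated arrays at each time. AIF1 had 32.0 and 38.0 untreated in p53i cells and 29.8, 40.0 and 6.42 with D3. The pan-leukocyte PTPRC lay between 0.571 and 20.9 on all arrays. In LacZi cells PTPRC had 13.4 and 13.5 untreated and 20.9 at 8 h, and was below both untreated arrays at 20 and 50 h. In p53i cells PTPRC had 10.3 and 10.6 untreated and 12.7, 1.88 and 0.571 with D3. The part of these markers in the THBD and PLAUR differences was not tested.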

How the data were processed

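The submitters deposited 1 table of intensity values, which per the submitters' processing notes are MAS5 signals, of a version not given in the sources used here. It holds 54675 probe sets on 10 arrays. The mean of each array without its lowest and highest 2% was 200, so the arrays had been scaled before deposit and were not normalized again. Low MAS5 signals are noisy, and the number of arrays limits the precision. Detection calls were not used here.

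Gene symbols came from the platform annotation: 41097 carried 1 symbol, 1801 several and 11777 none, and only the first were used. Values were converted to log2(signal + 16), which understates differences of weak genes. Each gene was read from its probe set of highest mean, and the upper 50% of probe sets by mean were kept, a signal above 35.4. limma 3.58.1 in R 4.3.3 (lmFit, eBayes with an intensity trend, two-sided) was fitted to 12022 genes with siRNA and D3 time as factors (5 residual degrees of freedom), with a siRNA-by-D3 term for the interaction (4), and Benjamini-Hochberg adjustment over all genes at 0.05. D3 is the mean of the 3 times, and lone arrays borrow their spread from the rest. The fits were tested on simulated data drawn independently for each array, which do not carry the uneven ACTB ratios or replicate effects of these arrays.

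Samples were grouped from their own labels into 8 groups. The members and lists were chosen with earlier results of these data known. The genes named are all members, every called gene of the wider lists, up to 6 per fit and direction, the 5 genes most correlated with THBD and with PLAUR over 10 arrays, and the label checks. FGA, FGG and the single markers quoted were picked after seeing their values.

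Scaling, offset, filter, choice of probe set, trend, a fit of group means, a replicate block, the ACTB ratio and each array in turn were varied. Another 2, without untreated replicate 1 of both siRNAs and without both 50 h arrays, were chosen after seeing the data. Promoter sequences are RefSeq's for GRCh38.p14. In all, 6 ug of total RNA was labelled per array, per the labels' protocols.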

Additional observations from a re-analysis of the deposited data

How the results depend on the processing

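No difference of THBD or PLAUR with the siRNA or D3 changed sign under any alternative, and no member or wider-list gene was called for the siRNA-by-D3 interaction under any of the 25 alternatives. THBD moved with the offset: p53i minus LacZi was -1.32 without an offset and -0.63 with 64, and D3 minus untreated 1.36 and 0.61. The siRNA-by-D3 interaction of THBD, -0.03 in the main fit, was 0.27 without an offset and -0.19 with 64, so its sign depended on the offset. For p53i minus LacZi, PLAUR was -0.78 with median centring, -0.88 without an offset, -0.70 with 64 and -0.72 as the mean of its probe sets. For D3 minus untreated it was 0.34 with median centring, 0.37 with 64, 0.27 as the mean of probe sets and 0.34 without both 50 h arrays. Median centring moved the D3 median of all genes to -0.10. The D3 difference of PROCR moved to 0.04 without untreated replicate 1 of both siRNAs, and FGB for 50 minus 8 h to 1.76 with an offset of 64. With each array left out, the siRNA differences were -1.09 to -0.89 for THBD and -0.84 to -0.81 for PLAUR. No member other than FGB, which was not tested there, was called for 50 minus 8 h under any alternative that gave a value.

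Of the wider list, 4 were called for p53i minus LacZi, 2 with the mean of probe sets or without both 50 h arrays, 1 without the trend, and 0 with group means, the ACTB covariate or without the 2 highest-ACTB arrays. Single arrays left out gave 2 to 4. For D3 minus untreated 1 was called, 2 with quantile normalization, median centring or the ACTB covariate, and 0 without the trend, with group means, without untreated replicate 1 of both siRNAs or without both 50 h arrays. Single arrays left out gave 0 to 4. Over all genes, the 781 calls for p53i minus LacZi fell to between 51 and 517 under several settings, with 51 from group means, 94 with the ACTB covariate and 164 without the trend. The 529 D3 calls ranged from 46 without both 50 h arrays to 955 with the replicate block. The 16 calls for 50 minus 8 h ranged from 0 to 74, and the 0 interaction calls became 62 without p53i untreated replicate 1 and 27 without untreated replicate 1 of both siRNAs. The cause of these changes was not tested.

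The siRNAs share replicate numbers only in the untreated groups, whose replicate 1 minus 2 differences correlated at 0.22 over genes, so the numbers were not treated as pairs. With the replicate block, 1303 genes were called for the siRNA and 955 for D3, and of the wider list 5 for the siRNA and 1 for D3, while THBD stayed at -1.01 with the siRNA. The mean of probe sets left THBD and FGB below the filter and gave no value for them. Signals below the filter limit what can be read of PLAT and TFPI.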
